A study of Acipenser baerii with 14 samples.

Results

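Neuromasts (NMs) of Siberian sturgeon (*Acipenser baerii*) larvae 24 h after neomycin (24 hpt) were compared with NMs of untreated larvae, with 2 libraries in each group and all genes of the count table. These are 4 of the 14 libraries of the study, which also sampled ampullary organs (AOs) without treatment and at 12 hpt and 24 hpt, NMs at 12 hpt, and general epithelium (EP) of untreated larvae. Larvae of every group were given as 10 days post hatching, and whether this was their age at treatment or at dissection is not stated. The 24 hpt larvae had been kept for 1 h in 200 µM neomycin, the untreated larvae received none, and the labels give neither strain nor genotype. NMs were dissected from the ventral side of the head. For each condition tissue from 15 larvae went into 1 pool, and RNA was extracted from 2 parts of that pool, so that the libraries of a group share animals and dissection. The tests therefore compare 1 pool with 1 pool, p-values measure only the spread from extraction onwards, and a difference between pools cannot be told apart from one made by the treatment.

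NMs are the mechanosensory organs of the lateral line of fishes and amphibians. Each holds hair cells, whose apical hair bundle reaches into a gelatinous cupula and whose base releases glutamate at ribbon synapses, and supporting cells, which surround the hair cells. Neomycin, an aminoglycoside antibiotic, kills hair cells, and in fishes the supporting cells then divide or convert into new ones. AOs are the related electroreceptive organs. Gene names were taken by the study from matching proteins of other species, so the roles given here are known from zebrafish, mouse or human. The names stand for assembled genes, several of which can carry 1 name, and reads may have been split among such copies.

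Expected counts summed to 7121038 and 8294296 in NMs at 24 hpt, against 7975001 and 10067958 in untreated NMs. They were scaled by TMM, whose factors were 1.16 and 1.19 at 24 hpt, against 0.895 and 0.907 in untreated NMs, and levels are given as CPM, that is, relative to the scaled total of the library. CPM values are not divided by gene length, so levels are compared between libraries and never between genes. After a filter on low counts 21978 of 23448 genes remained for the test, in which the 14 libraries shared 1 fit. A call required that edgeR's quasi-likelihood test gave an FDR (Benjamini-Hochberg) under 0.01 and that the log2 fold change lay above 1 or below -1. "Rose" and "fell" are used for called genes only, and an error after ± is the SE of the log2 fold change in that test, with 2 libraries in each group. The libraries held the genes that mark hair cells: the parvalbumin gene *cpv3* was at 1020 and 1047 CPM at 24 hpt and 1748 and 1801 CPM in untreated NMs, against 53.4 and 58.2 CPM in EP. Of *otof*, for the calcium sensor otoferlin, 2 copies are followed here. The larger of them was at 55.3 and 58.4 CPM at 24 hpt and 71.1 and 61.9 CPM in untreated NMs, against 6.23 and 3.78 CPM in EP.

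At 24 hpt 3549 genes rose (16.1% of those tested) and 1100 fell (5.01%), while the median of all tested genes was -0.03 on the log2 scale. The rises were the larger changes: 1712 genes rose by more than 3 on the log2 scale, against 73 that fell by more than 3. Both 24 hpt libraries lay above both untreated libraries in 35.6% of tested genes and below both in 37.9%. When libraries were scaled by their totals alone, an alternative chosen after seeing the data, the median of all tested genes moved up by 0.38. The counts were then 4626 higher and 354 lower, so that 92.9% of the calls were higher, against 76.3% with TMM. The fold changes below are relative to TMM, and the calls and list counts of NMs against untreated NMs that this scaling ends or moves by more than 1.5 times are given beside them. Shares of a list called in this comparison are to be read against the 16.1% higher and 5.01% lower of all tested genes.

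The pools differed in genes that mark tissues other than NMs. Lens genes were low in untreated NMs and abundant at 24 hpt, neuronal genes rose, and liver genes fell. The 25 copies of the lens list summed to 10135 and 8962 CPM at 24 hpt, against 29.02 and 28.5 CPM in untreated NMs, and 20 of 24 tested copies rose (83.3%, against 16.1% of all tested genes; median log2 fold change 8.16, or 7.26 with the 3 tested copies at 0 in both untreated libraries set to their lower bound). The neuron list summed to 3138 and 3075 CPM at 24 hpt, against 182 and 172 CPM in untreated NMs, and 45 of 48 rose (median 5.18, or 5.18 with the 1 copy at 0 in both untreated libraries at its bound). The liver list summed to 96.6 and 97.99 CPM at 24 hpt, against 748 and 764 CPM in untreated NMs, with 28 of 37 lower, 1 higher (2 under library totals) and a median of -4.80 (-4.48 with bounds). No other pool had all 3 parts of this pattern. The neuron list was also above its untreated sum in NMs at 12 hpt and in AOs at 12 hpt (1669 and 1653 CPM) and at 24 hpt. In NMs at 12 hpt the lens list summed to 31.2 and 29.7 CPM, the neuron list to 796 and 789.6 CPM and the liver list to 672 and 629 CPM. In AOs at 24 hpt the lens list summed to 112 and 103 CPM, against 683 and 683 CPM in untreated AOs. The neuron list summed there to 2402 and 2355 CPM, against 615 and 595 CPM in untreated AOs. The liver list was low in both AO groups, at 122 and 119 CPM at 24 hpt and 124 and 122 CPM untreated. Among the 7 groups, NMs at 24 hpt alone had a lens sum above 1000 CPM.

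**Figure D1:**
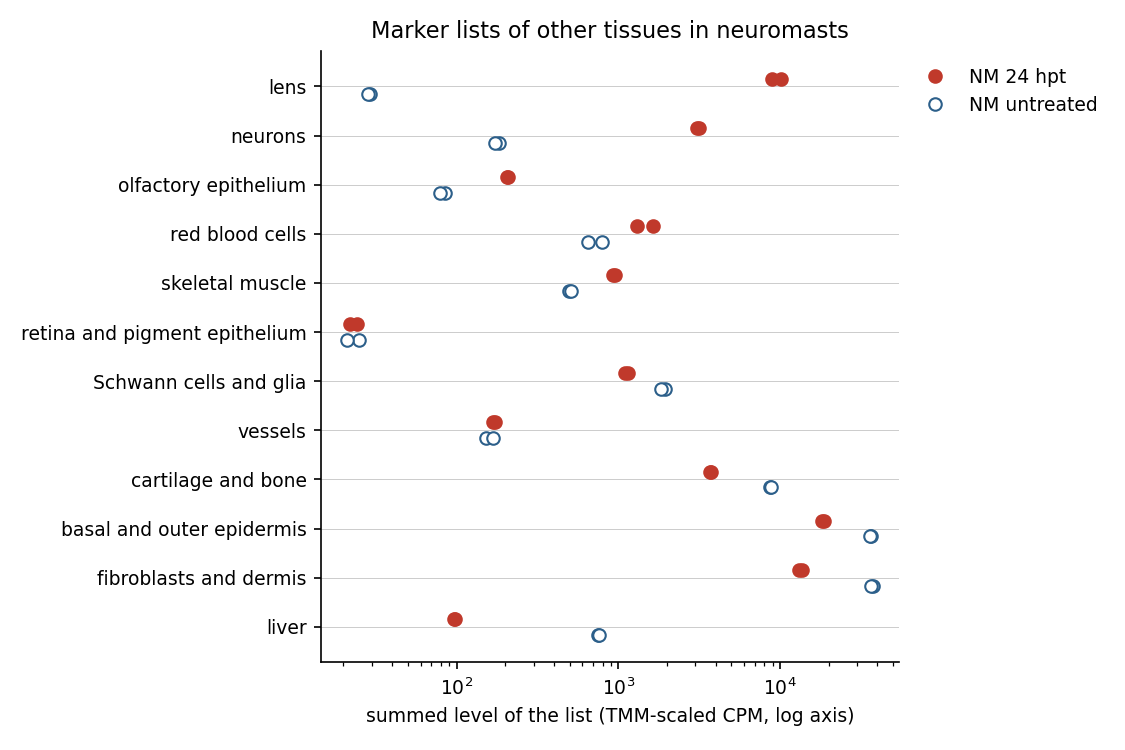
Summed level of the marker lists of 12 tissues in the libraries of NMs at 24 hpt (filled circles) and untreated NMs (open circles), in TMM-scaled CPM on a log axis; each point is 1 library and each list is summed over all its copies. The lens list lay at 10135 and 8962 CPM at 24 hpt and 29.02 and 28.5 CPM in untreated NMs, the neuron list was higher and the liver, dermis and epidermis lists were lower at 24 hpt, and the retina list overlapped.

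Single genes show the scale of these differences. *cryaa*, which encodes alpha-A crystallin of the lens, was at 42.7 and 36.7 CPM at 24 hpt, against 0 CPM in both untreated libraries, and so at least 214-fold higher when the untreated group is set to a floor of 3 counts. *crybb1*, for a beta crystallin, was at 616 and 584 CPM at 24 hpt, against 0.2804 and 0.877 CPM in untreated NMs. The groups were far apart for both genes, whereas the retina list summed to 24.2 and 21.9 CPM at 24 hpt, against 24.8 and 21.2 CPM in untreated NMs, with 1 of 11 tested copies called (higher; 2 were under library totals and 0 without any 1 of the 4 libraries). Among neuronal genes *elavl4*, for an RNA-binding protein of postmitotic neurons, was at 78.1 and 76.7 CPM at 24 hpt, against 0.1402 and 0.329 CPM in untreated NMs. *gad2*, an enzyme that makes the transmitter GABA, was at 41.9 and 36.2 CPM at 24 hpt, against 0.1402 and 0.219 CPM in untreated NMs. Among liver genes *fabp10a*, the fatty acid-binding protein of the liver, was at 0.484 and 0 CPM at 24 hpt, against 227 and 155 CPM in untreated NMs. *fga*, which encodes a chain of fibrinogen, was at 0.363 and 0.304 CPM at 24 hpt, against 63.9 and 58.2 CPM in untreated NMs. These liver genes were also present at 12 hpt, with 192 and 119.9 CPM for *fabp10a* and 48.3 and 46.1 CPM for *fga*. In AOs *fga* did not pass 1 CPM either at 24 hpt (0.326 and 0.1003 CPM) or untreated (0.381 and 0.599 CPM).

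The 12 genes with the largest rises among those reaching 5 CPM were at 0 in both untreated libraries and were at least 109-fold to at least 215-fold higher. Besides *cryaa* they were genes of neurons and brain: *myt1l* and *arx*, transcription factors of neurons, *slc12a5*, the chloride exporter of mature neurons, *cacna1a* and *kcnc1*, channel subunits, *snap91* and *ppfia2*, presynaptic proteins, *cnih2*, an accessory subunit of glutamate receptors, *lmtk3*, a kinase, and both copies of *pdzd4*. *slc12a5* was at 37.8 and 38.8 CPM at 24 hpt, against 0 CPM in both untreated libraries, and *arx* was at 23.4 and 24.8 CPM, against 0 CPM. The 12 largest falls among such genes were mostly liver genes. They were *fabp10a*, *agxt* (2 copies, glyoxylate metabolism), *fga*, *fgb* and *plg* (clotting and fibrinolysis), *apoa1* and *apob* (lipoproteins), *ftcd* (histidine breakdown), *mid1ip1b* (lipid synthesis), *ucp2* (a mitochondrial carrier) and *leg1*, a gene enriched in zebrafish liver. *leg1* was at 0 CPM in both 24 hpt libraries, against 7.29 and 5.26 CPM in untreated NMs, and so at least 37.2-fold lower. *apoa1* was at 0.363 and 0.913 CPM at 24 hpt, against 69.4 and 87.9 CPM in untreated NMs (log2 fold change -6.87 ± 0.34).

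Of the genes that make and define hair cells, *atoh1* and *six2* fell at 24 hpt and *pou4f3*, *gfi1* and *cpv3*, which mark later hair cells, were not called. In this bulk tissue fewer cells of a type and less RNA per cell cannot be told apart. *atoh1*, the transcription factor that starts hair cell differentiation, was at 8.72 and 10.9 CPM at 24 hpt, against 29.2 and 28.4 CPM in untreated NMs (log2 fold change -1.55 ± 0.19, FDR 6.05e-05, edgeR). *six2*, a homeobox factor, was at 15.01 and 17.3 CPM, against 40.1 and 40.2 CPM (-1.31 ± 0.11), a call that library totals ended. The 2 named copies of *eya1*, a regulator of sensory placodes, had log2 fold changes of -0.97 ± 0.10 and -0.91 ± 0.08, just short of the threshold of 1. Without NM 24 hpt replicate 1, or without NM untreated replicate 2, the first of them was called. *sox2*, expressed by supporting cells and precursors, was at 138 and 142 CPM at 24 hpt, against 134 and 133 CPM in untreated NMs (log2 fold change 0.07 ± 0.07).

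Among later hair cell factors, *pou4f3*, which hair cells need to mature and survive, was at 6.42 and 6.19 CPM at 24 hpt, against 9.39 and 8.22 CPM in untreated NMs (log2 fold change -0.48 ± 0.15, FDR 0.0245, edgeR), and was not called. *gfi1*, a target of Pou4f3, was at 4.84 and 3.85 CPM, against 7.85 and 7.23 CPM (-0.80 ± 0.18), and was not called. Its 24 hpt values lay under its untreated values, as in 37.9% of all tested genes. *cpv3*, whose calcium buffer fills lateral line hair cells, had a log2 fold change of -0.78 ± 0.07 and an FDR of 6.70e-06 (edgeR), so that it missed the call by its size only. In AOs the same 3 genes were further below their untreated level at 24 hpt. *pou4f3* was at 2.71 and 3.61 CPM in AOs at 24 hpt, against 10.8 and 9.98 CPM in untreated AOs. *cpv3* was at 449 and 485 CPM in AOs at 24 hpt, against 1554 and 1578 CPM in untreated AOs. The response of NMs was less negative than that of AOs for *pou4f3* (difference 1.23, called) and for *gfi1* (difference 1.23, called), while the difference for *cpv3* (0.97) was not called. The difference for *gfi1* was no longer called without any 1 of the 8 libraries, and that for *pou4f3* was not called without NM 24 hpt replicate 1, NM 24 hpt replicate 2, NM untreated replicate 2, AO 24 hpt replicate 1 or AO untreated replicate 1. Both calls were lost under DESeq2's Wald test and with the 8 libraries alone.

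Over the whole list of 32 hair cell lineage factors, 7 rose (21.9%) and 4 fell (12.5%), against 16.1% and 5.01% of all tested genes. The median was -0.25, which turned to 0.14 under library totals. Without NM 24 hpt replicate 1, 7 fell. Of the 7 that rose, 4 that neurons and their precursors also express had these values. *insm1b*, a zinc finger factor of differentiating sensory and neuroendocrine cells, was at 19.01 and 21.00 CPM at 24 hpt, against 4.63 and 5.92 CPM in untreated NMs (1.91 ± 0.13). *myt1*, of the same family as *myt1l*, was at 40.7 and 35.4 CPM, against 3.36 and 3.84 CPM (3.39 ± 0.15). *barhl2*, a homeobox factor of retina, brain and ear, was at 11.7 and 11.6 CPM, against 0.2804 and 0.219 CPM (5.48 ± 0.31), and *barhl1* was at 8.35 and 9.84 CPM, against 0.561 and 0.767 CPM. These 4 genes were also called higher in NMs than in AOs by the difference of the responses, as the neuron list was (40 of 48 called), and the part of neuronal RNA in them was not tested. The difference for *barhl1* kept its call only without AO 24 hpt replicate 2, and lost it under DESeq2's Wald test and with the 8 libraries alone.

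**Figure D2:**
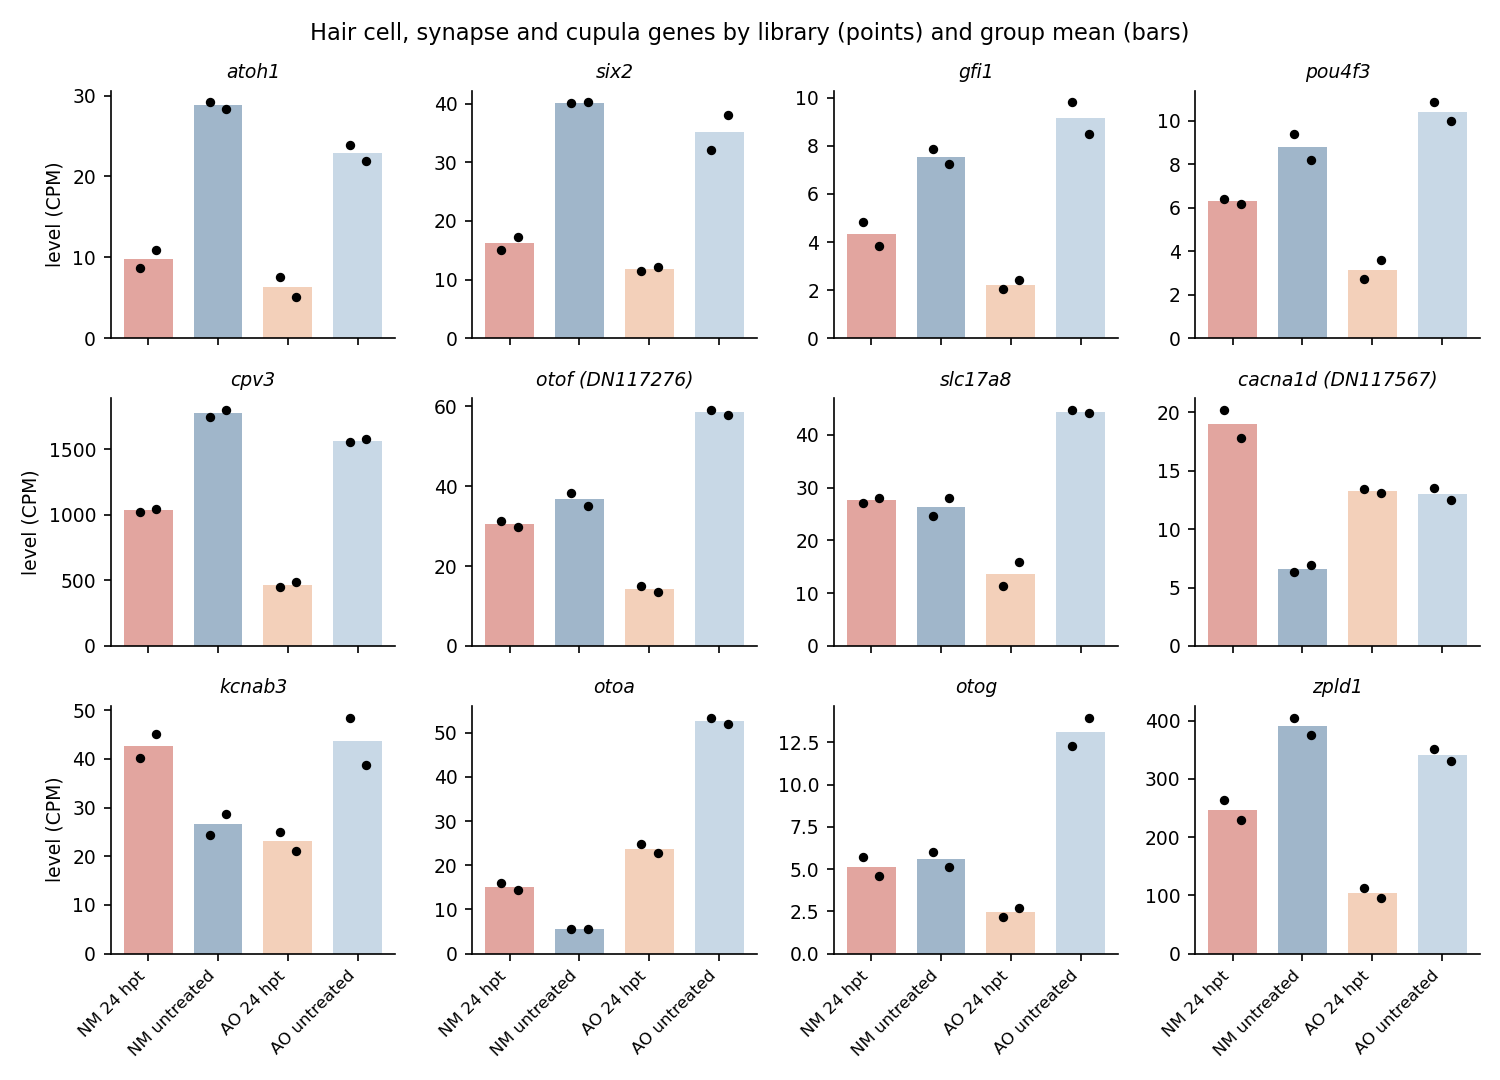
Level in each library, in TMM-scaled CPM with a linear axis from 0, of 12 genes of hair cells, their synapse and the cupula in NMs at 24 hpt, untreated NMs, AOs at 24 hpt and untreated AOs; points are libraries and bars are means of 2. *atoh1*, *six2* and *gfi1* lay lower at 24 hpt in both organs, whereas the *otof* copy shown, *slc17a8* and *otog* stayed near their untreated level in NMs and lay lower in AOs.

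*slc17a8* and the 2 *otof* copies followed here, which serve the hair cell ribbon synapse, did not change by the size that a call needs. This differed from AOs. These genes were chosen after their values were seen. More assembled genes carry the name *otof* and are not reported here. *otof* (TRINITY_DN117276_c1_g1), required for transmitter release by hair cells, was at 31.4 and 29.8 CPM at 24 hpt, against 38.4 and 35.1 CPM in untreated NMs (log2 fold change -0.26 ± 0.10), and the change had the opposite sign under library totals (0.12). *slc17a8*, which loads glutamate into hair cell vesicles, was at 27.1 and 28.00 CPM at 24 hpt, against 24.5 and 28.1 CPM in untreated NMs (0.06 ± 0.20). The 24 hpt and untreated values of *slc17a8* overlapped. In AOs *slc17a8* was at 11.3 and 15.95 CPM at 24 hpt, against 44.7 and 44.1 CPM in untreated AOs, and this *otof* copy was at 14.99 and 13.5 CPM, against 59.1 and 57.9 CPM. The difference of the responses was 1.77 and 1.89 for the 2 *otof* copies followed here and 1.77 for *slc17a8*, all 3 called. *cacna1d*, the calcium channel that triggers release at ribbons, rose in both copies followed here, and other copies of that name are not reported. Copy TRINITY_DN117567_c2_g1 was at 20.2 and 17.9 CPM at 24 hpt, against 6.31 and 6.904 CPM in untreated NMs (1.52 ± 0.11), and copy TRINITY_DN95551_c3_g1 was at 15.98 and 14.7 CPM, against 4.63 and 3.84 CPM (1.86 ± 0.20). In AOs both copies stayed within 0.3 of their untreated level on the log2 scale, at 0.03 and 0.25. *kcnab3*, a potassium channel subunit known from lateral line organs of paddlefish, was at 40.2 and 45.1 CPM, against 24.4 and 28.7 CPM (0.68 ± 0.14), and was not called in NMs other than under library totals, although its response differed from that in AOs by 1.60.

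The wider list of ribbon synapse and vesicle release genes rose: 63 of 89 tested copies were called higher (70.8%) and 2 lower (2.25%). The median log2 fold change was 2.90 (2.90 with copies at 0 in both untreated libraries at their bound). Most of these genes serve every chemical synapse. *sv2a*, a vesicle glycoprotein of neurons, was at 81.1 and 72.7 CPM at 24 hpt, against 0.2804 and 0.1096 CPM in untreated NMs (8.59 ± 0.40). *rims1* (TRINITY_DN109138_c0_g1) and *pclo* (TRINITY_DN98220_c2_g1), scaffolds of the release site, were at 0 CPM in both untreated libraries and at least 50.2-fold and at least 53.8-fold higher at 24 hpt. The neuron list, with 3138 and 3075 CPM at 24 hpt against 182 and 172 CPM in untreated NMs, moved with them, and its part was not tested. The 2 copies that fell were of *syt1* and *syp*. *syt1* (TRINITY_DN106715_c0_g1), a calcium sensor, was at 21.2 and 20.9 CPM, against 48.4 and 43.6 CPM, and *syp* (TRINITY_DN114347_c1_g1), a vesicle protein, was at 44.8 and 67.5 CPM, against 116 and 120.4 CPM. Library totals ended both calls, and that of *syp* was also lost without NM 24 hpt replicate 1 and with the 4 libraries alone. Of the calcium buffers, pumps and channels of hair cells, 18 of 32 rose (56.2%) and 2 fell (6.25%), with a median of 1.52. Their strongest rise was in *atp2b2* (TRINITY_DN94295_c0_g2), the calcium pump of hair bundles that neurons also use, at 49.3 and 38.9 CPM at 24 hpt, against 0.561 and 0 CPM in untreated NMs. *kcnma1* (TRINITY_DN116202_c0_g1), a calcium-gated potassium channel, fell to 2.66 and 2.23 CPM, against 5.47 and 6.25 CPM, a call that library totals and the 4 libraries alone ended. Without any 1 of the 4 libraries, 1 and not 2 genes of this list fell, and 0 under library totals.

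In the hair bundle list 18 of 61 tested copies rose (29.5%, against 16.1% of all tested genes), the other 43 were not called and the median was 0.55, while the summed level was 519.9 and 535 CPM at 24 hpt, against 424 and 450.0 CPM in untreated NMs. The copies that rose included genes with a role outside hair cells as well. The neuron list rose in the same pool, and its part was not tested. *adgrv1*, an adhesion receptor of ankle links and photoreceptors, was at 10.5 and 11.8 CPM at 24 hpt, against 0.561 and 0.658 CPM in untreated NMs (4.15 ± 0.17). *elmod1*, a GTPase-activating protein needed to maintain the bundle, was at 73.3 and 71.7 CPM, against 2.94 and 2.19 CPM (4.83 ± 0.14). Most of the difference in the summed level of the list came from *elmod1*. *cdh23* (TRINITY_DN106515_c0_g1), of the tip links, was at 4.601 and 5.48 CPM, against 0.421 and 0.658 CPM, and *lhfpl5*, a subunit of the transduction complex, was at 4.48 and 3.85 CPM, against 0.421 and 0.219 CPM. The next 3 bundle genes were chosen after their values were seen, and none of them was called. *espnl*, an actin bundler of stereocilia, was at 3.03 and 2.94 CPM, against 5.19 and 4.82 CPM (-0.74 ± 0.18), and *grxcr2*, which organises the bundle base, was at 5.21 and 3.96 CPM, against 7.71 and 7.89 CPM (-0.78 ± 0.23). *fscn2*, another actin bundler, was at 7.02 and 6.999 CPM, against 9.11 and 9.42 CPM (-0.40 ± 0.10).

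The genes of the cupula and related gels divided. *coch*, cochlin of the inner ear matrix, fell in both copies, at 26.4 and 19.6 CPM and 27.1 and 29.3 CPM at 24 hpt, against 101 and 86.8 CPM and 95.6 and 91.4 CPM in untreated NMs (log2 fold changes -2.03 ± 0.16 and -1.73 ± 0.11). *otol1*, an otolith collagen, fell to 1.82 and 1.72 CPM, against 8.27 and 6.68 CPM. *otoa*, an anchor of acellular gels to epithelia, rose to 15.98 and 14.3 CPM, against 5.47 and 5.48 CPM (1.46 ± 0.10), whereas in AOs it was at 24.9 and 22.7 CPM at 24 hpt, against 53.5 and 51.9 CPM in untreated AOs. The difference of the responses was 2.61 and was called. *zpld1*, a zona pellucida protein of cupulae, was at 265 and 229 CPM, against 405 and 376 CPM (-0.66 ± 0.14), and *otog*, otogelin, was at 5.69 and 4.56 CPM, against 6.03 and 5.15 CPM (-0.12 ± 0.16) (neither called), and the values of *otog* overlapped. Other copies named *otoa*, *otog* or *zpld1* are not reported here. Over the list of 17, 2 rose (11.8%) and 3 fell (17.6%), against 16.1% and 5.01% of all tested genes. The median was 0.04, and 1 rose without NM untreated replicate 2.

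Genes that mark supporting cells and progenitors moved both ways: 14 of 45 rose (31.1%) and 7 fell (15.6%), against 16.1% and 5.01% of all tested genes, with a median of -0.15 that turned to 0.23 under library totals, where none fell. *sox10*, of neural crest and otic derived cells, was at 21.9 and 26.9 CPM at 24 hpt, against 55.9 and 67.6 CPM in untreated NMs (-1.34 ± 0.17). *slitrk6*, a membrane protein that supports innervation of the inner ear, was at 11.02 and 9.43 CPM, against 25.1 and 26.2 CPM (-1.33 ± 0.10). *tnfrsf19*, a target and modulator of Wnt signaling in progenitors, was at 33.4 and 31.3 CPM, against 76.1 and 78.2 CPM (-1.25 ± 0.07). In these 3 called genes no 24 hpt value reached an untreated value, and 37.9% of all tested genes lay below in this way. *cxcr4*, the chemokine receptor that guides the migrating lateral line primordium in zebrafish, fell as well (3.75 and 3.85 CPM, against 9.39 and 8.77 CPM). Library totals ended all 4 calls. Among the genes that rose were *slc1a3*, *s100b* and *ptprz1*, which glia also express. *slc1a3* (TRINITY_DN108125_c1_g2), a glutamate transporter, was at 335 and 337 CPM, against 135 and 145 CPM (1.26 ± 0.07). *s100b*, a calcium-binding protein, was at 97.2 and 93.1 CPM, against 7.15 and 7.78 CPM (3.67 ± 0.08), and *ptprz1*, a receptor phosphatase, was at 41.2 and 40.2 CPM, against 7.85 and 6.58 CPM (2.50 ± 0.11). Other copies named *slc1a3* or *ptprz1* are not reported here. The short list of Schwann cells and glia had 1 of 11 higher and 4 lower (median -0.94), and 2 lower under library totals. It shares *sox10*, *erbb3*, *gfap* and *s100b* with the supporting cell list and so repeats some of these genes. It holds neither *slc1a3* nor *ptprz1*, and the part of glia in the rises was not tested.

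Wnt signaling, which drives division of supporting cells in regenerating zebrafish NMs, was represented by 92 tested copies, of which 21 fell (22.8%) and 9 rose (9.78%), against 5.01% and 16.1% of all tested genes. The median was -0.49 and the list summed to 2330 and 2279 CPM at 24 hpt, against 2797 and 2782 CPM in untreated NMs. Library totals left 6 lower copies and a median of -0.10. Ligands and secreted inhibitors were both among the falls. *wnt5b*, a ligand of the planar polarity branch, was at 5.57 and 6.39 CPM at 24 hpt, against 23.7 and 22.4 CPM in untreated NMs (-1.94 ± 0.14). *wnt7a* was at 31.2 and 29.6 CPM, against 81.04 and 90.5 CPM (-1.50 ± 0.16), and *wnt6* was at 2.42 and 2.03 CPM, against 6.73 and 6.68 CPM. *dkk1*, which blocks the Lrp coreceptor, was at 8.597 and 7.41 CPM, against 24.96 and 25.3 CPM (-1.66 ± 0.17). *sfrp2* and *sfrp1*, which bind Wnt ligands, were at 17.9 and 17.7 CPM, against 52.01 and 48.1 CPM (-1.49 ± 0.10), and at 64.2 and 59.5 CPM, against 146 and 139.9 CPM (-1.21 ± 0.11, a call that library totals ended). For all 6 genes, which are called falls, both 24 hpt libraries lay below both untreated libraries, as they did in 37.9% of all tested genes. The members that rose included *wnt8b*, receptors and a component of the beta-catenin destruction complex. The *wnt8b* copy TRINITY_DN102583_c1_g1, a ligand of the forebrain, was at 4.601 and 5.07 CPM, against 0 CPM in both untreated libraries, and so at least 26.3-fold higher. *apc*, of the destruction complex, was at 58.8 and 54.8 CPM, against 15.4 and 14.9 CPM (1.91 ± 0.12), *fzd3* was at 7.14 and 7.304 CPM, against 2.52 and 1.21 CPM (1.99 ± 0.27), and *fzd5* was at 4.72 and 3.04 CPM, against 0.2804 and 0.548 CPM (3.13 ± 0.37).

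**Figure D3:**
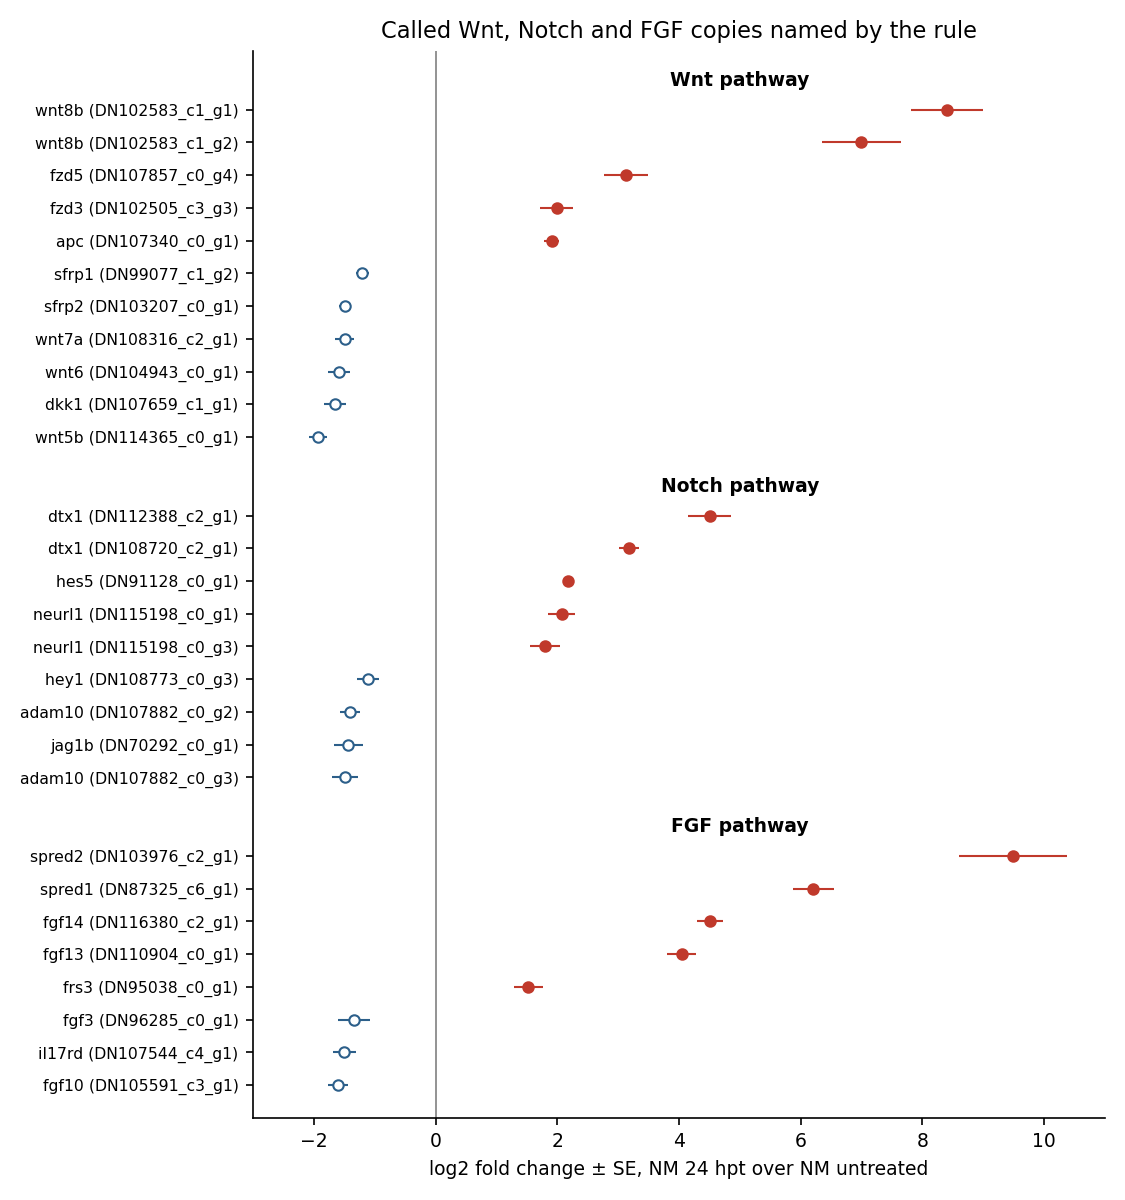
Log2 fold change of NMs at 24 hpt over untreated NMs (horizontal axis, points with SE) for the copies named by the rule in the Wnt, Notch and FGF lists, all of which passed the test; filled points are higher and open points lower at 24 hpt. Wnt ligands other than *wnt8b* and the secreted inhibitors *dkk1* and *sfrp2* lay below 0, and *wnt8b*, *spred1* and *spred2* lay farthest above it, although values of copies at 0 in both untreated libraries, such as *wnt8b*, depend on the prior count of the model.

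Notch signaling restrains hair cell formation in supporting cells. Of 68 tested copies 8 rose (11.8%) and 4 fell (5.88%), near the 16.1% and 5.01% of all tested genes, with a median of -0.13 that turned to 0.25 under library totals. A copy of *jag1b*, a ligand of supporting cells, was at 5.93 and 7.101 CPM at 24 hpt, against 16.1 and 19.3 CPM in untreated NMs (-1.44 ± 0.24). In *adam10*, the protease that releases the Notch ectodomain, 2 copies fell, the larger of them to 15.3 and 14.4 CPM, against 40.8 and 38.03 CPM. No other copy named *jag1b* or *adam10* fell. *hes5*, a Notch target in supporting cells and neural progenitors, rose to 59.6 and 56.1 CPM, against 13.5 and 12.2 CPM (2.18 ± 0.09). The other target named, *hey1*, went the other way, with 3.39 and 4.06 CPM, against 7.99 and 8.22 CPM (-1.11 ± 0.19), a call lost under library totals and without NM 24 hpt replicate 1. *dtx1*, a regulator of Notch turnover, rose in 2 copies (log2 fold changes 4.51 ± 0.35 and 3.18 ± 0.16), and so did *neurl1*, a ligase that acts on Notch ligands (2.07 ± 0.23 and 1.79 ± 0.25).

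In the FGF list 10 of 43 rose (23.3%) and 3 fell (6.98%), with a median of -0.05 (0.33 under library totals). Among the falls were ligands of the lateral line and ear. *fgf10* was at 2.42 and 2.84 CPM at 24 hpt, against 7.15 and 8.88 CPM in untreated NMs (-1.60 ± 0.17), and *fgf3* was at 2.66 and 4.16 CPM, against 9.11 and 8.44 CPM (-1.34 ± 0.26). *il17rd*, the feedback inhibitor also named Sef, was at 5.45 and 4.16 CPM, against 13.5 and 13.6 CPM (-1.50 ± 0.19). No other copy named *fgf10* or *il17rd* fell. The call of *fgf3* was lost under library totals, with the 4 libraries alone, without NM 24 hpt replicate 1 and without NM untreated replicate 1. *fgf13* and *fgf14*, which are not secreted and regulate sodium channels of neurons, rose by 4.04 and 4.51 on the log2 scale, and *spred1*, an inhibitor of Ras signaling, was at 25.3 and 31.3 CPM, against 0.421 and 0.329 CPM. The study singled out 5 regulators, of which 3 rose here. It chose them from these same libraries, in part for a difference between untreated AOs and untreated NMs. All 5 were higher in untreated AOs, so the choice favoured genes that were low in the untreated NMs used here as reference. The 3 rises are therefore not independent of that choice. *pax2a*, a factor of the otic placode and of midbrain, was at 3.63 and 4.26 CPM, against 0.2804 and 0.329 CPM (3.63 ± 0.36). *ptch1*, the Hedgehog receptor, was at 8.35 and 8.83 CPM, against 3.36 and 3.29 CPM (1.37 ± 0.13), and *fgf8* was at 1.33 and 1.22 CPM, against 0.2804 and 0 CPM (3.22 ± 0.69). The *fgf8* call rests on few counts: it was lost under DESeq2's Wald test, with the 4 libraries alone, and without NM 24 hpt replicate 1, NM 24 hpt replicate 2 or NM untreated replicate 2. *ep300*, a histone acetyltransferase, was at 14.4 and 9.23 CPM, against 14.4 and 7.45 CPM, and *tbx18* was at 0.242 and 0.406 CPM, against 0.2804 and 0.219 CPM, both overlapping between groups and changing sign when 1 library was left out.

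**Figure D4:**
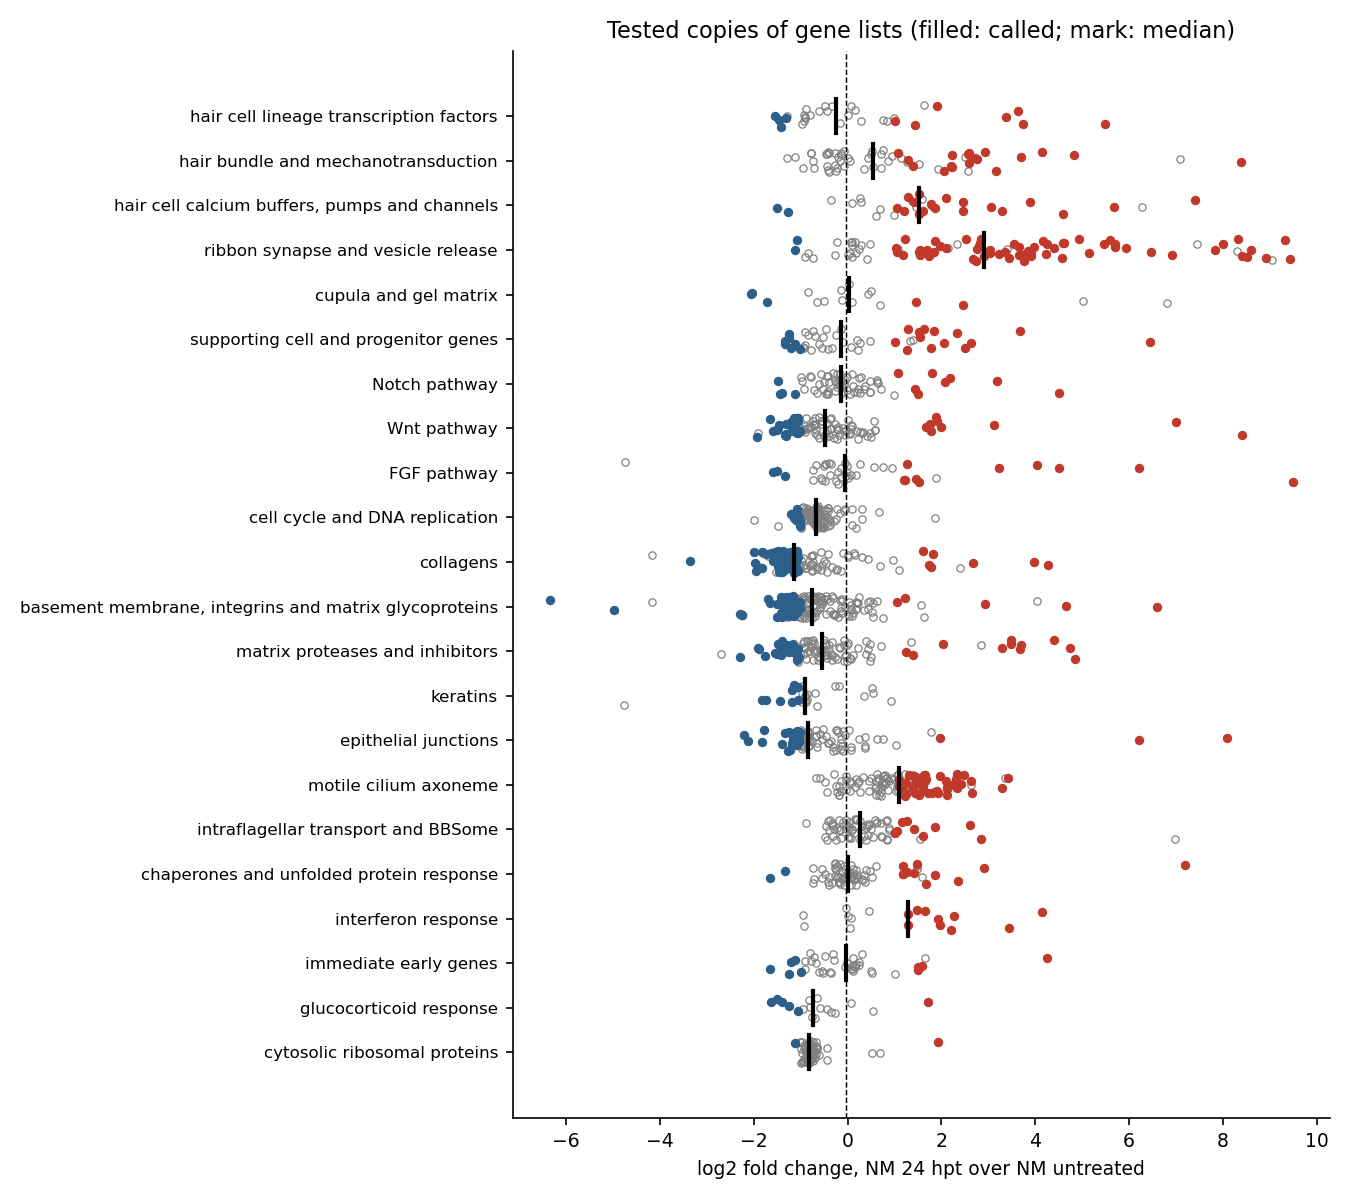
Log2 fold changes of NMs at 24 hpt over untreated NMs for every tested copy of 22 gene lists, 1 point per copy; filled points passed the test, vertical marks are list medians and the dashed line is the median of all tested genes (-0.03). The collagen, basement membrane, keratin and junction lists lay mostly below 0, and the synapse and motile cilium lists above; under library totals all points move up by about 0.38, and of these 22 lists the medians of lineage factors, supporting cells, Notch, FGF and immediate early genes turn positive.

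Extracellular matrix genes fell in large number. Of 131 collagen copies 72 fell (55.00%, against 5.01% of all tested genes) and 7 rose (median -1.15), and their summed level was 16766 and 16232 CPM at 24 hpt, against 42803 and 42864 CPM in untreated NMs. Of 144 copies for basement membranes, integrins and matrix glycoproteins 42 fell and 5 rose (median -0.75). Under library totals 28 collagen copies and 10 copies of the other list fell, with medians of -0.76 and -0.37, and with the 4 libraries alone or without NM 24 hpt replicate 2 or NM untreated replicate 2, 3 copies of the other list rose. *postn*, periostin of fibrous connective tissue, was at 845 and 677 CPM at 24 hpt, against 4024 and 3262 CPM in untreated NMs (-2.26 ± 0.19). It was similarly lower in AOs, at 923 and 771 CPM at 24 hpt, against 3486 and 2914 CPM in untreated AOs. A *col1a1* copy (TRINITY_DN98278_c5_g5), for the main fibrillar collagen, was at 83.5 and 93.3 CPM, against 339 and 351 CPM (-1.96 ± 0.09), and a *col1a2* copy, for the partner chain of the same fibril, was at 98.1 and 84.1 CPM, against 355 and 327 CPM (-1.90 ± 0.19). In AOs this *col1a1* copy was at 273 and 265 CPM at 24 hpt, against 286 and 259.6 CPM in untreated AOs, and the difference of the responses was called (-1.94). The marker list of fibroblasts and dermis had 44 of 62 lower (21 under library totals) and 2 higher, with 13680 and 13006 CPM, against 37544 and 36560 CPM. It shares many copies with the lists above, such as *col1a1*, *col1a2* and *postn*, so it repeats part of these falls. The part of dermis in them was not tested.

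Collagens of cartilage went both ways. The 3 named *col11a1* copies had log2 fold changes of -1.55 ± 0.15, -1.47 ± 0.14 and -1.49 ± 0.07, and *epyc*, a proteoglycan of cartilage that fell, was at 15.98 and 15.01 CPM, against 42.1 and 43.6 CPM. Of the cartilage and bone list 15 of 39 fell (38.5%, with 9 falls under library totals) and 6 rose (15.4%, near the 16.1% of all tested genes). *col9a1* and *col9a3*, chains of the fibril-associated collagen IX, rose with 10.2 and 11.8 CPM, against 3.08 and 3.51 CPM, and 16.8 and 15.8 CPM, against 5.89 and 4.82 CPM. Matrix proteases and their inhibitors were 11 higher (10.9%) and 19 lower (18.8%) of 101, against 16.1% and 5.01% of all tested genes. Under library totals 8 were lower. *mmp2*, a gelatinase of connective tissue, was at 77.6 and 74.4 CPM at 24 hpt, against 221 and 224 CPM in untreated NMs (-1.55 ± 0.07), and both copies of *adamts17* fell (-1.89 ± 0.09 and -1.92 ± 0.17). *mmp24*, a protease of the nervous system, and *adamts3*, which processes procollagen, rose by 4.85 and 3.68 on the log2 scale. *tnr* (TRINITY_DN119441_c5_g1), tenascin-R of the brain matrix, was at 14.05 and 12.7 CPM, against 0.1402 and 0.1096 CPM.

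Epithelial genes fell more often than they rose. Of 26 keratin copies 8 fell (30.8%) and the other 18 were not called (median -0.91), and of 84 junction copies 25 fell (29.8%) and 3 rose (median -0.84). Library totals left 2 and 4 lower copies, with medians of -0.53 and -0.46. The number of junction copies that rose was 1 without NM 24 hpt replicate 2 or NM untreated replicate 1 and 0 without NM untreated replicate 2, and 1 keratin copy rose under library totals and without NM 24 hpt replicate 1 or NM untreated replicate 2. *krt13*, a keratin of stratified epithelia, was at 239 and 245 CPM at 24 hpt, against 880.0 and 848 CPM in untreated NMs (-1.84 ± 0.07). *krt42* was at 433 and 388 CPM, against 1438 and 1321 CPM (-1.75 ± 0.11). Both keratins were near their untreated level in AOs. There *krt13* was at 787 and 749 CPM at 24 hpt, against 818 and 824 CPM in untreated AOs. *krt42* was at 1187 and 1050 CPM at 24 hpt, against 1288 and 1157 CPM. The responses differed by -1.74 and -1.62 (both called), and a difference was called for 5 of the 26 keratin copies. The junction list was lower in both organs, and 0 of its 84 copies had a called difference (3 under library totals). It summed to 5205 and 5008 CPM in AOs at 24 hpt, against 8578 and 8412 CPM in untreated AOs. In NMs it summed to 5107 and 5055 CPM at 24 hpt, against 9900 and 9687 CPM untreated. *cdh1*, E-cadherin, was at 266 and 274 CPM, against 589 and 614 CPM (-1.16 ± 0.06), and *tp63*, the regulator of basal epidermal cells, was at 100.5 and 90.4 CPM, against 195 and 203 CPM (-1.06 ± 0.09). Library totals ended the calls of *cdh1* and *tp63*, and that of *tp63* was also lost without NM 24 hpt replicate 2. Of the tight junction genes, a *cldn3* copy (TRINITY_DN109515_c0_g1) was at 3.51 and 3.14 CPM, against 12.8 and 10.2 CPM, and *cldn8* was at 1.45 and 0.913 CPM, against 5.61 and 4.71 CPM (-2.13 ± 0.27). The 4 named copies of *itgb4*, the integrin of hemidesmosomes, fell by 1.32 to 1.42 on the log2 scale, 3 of them not under library totals. The list of basal and outer epidermis had 26 of 68 lower (2 under library totals), with 18671 and 18227 CPM, against 36604 and 35886 CPM. It shares many copies with the keratin and junction lists, such as *krt13* and *cdh1*, so it repeats part of these falls. The part of epidermis in them was not tested.

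Of 109 copies of genes for the cell cycle and DNA replication 9 fell (8.26%, against 5.01% of all tested genes), the other 100 were not called and the median was -0.67. Leaving out 1 library gave 5 (without NM untreated replicate 1) to 14 (without NM 24 hpt replicate 1) falls, DESeq2's Wald test 4, the 4 libraries alone 2, and library totals 0 falls and 2 rises with a median of -0.29. The list summed to 2504 and 2595 CPM at 24 hpt, against 4066 and 4201 CPM in untreated NMs. *cdk1*, the kinase that drives mitosis, was at 65.9 and 64.9 CPM at 24 hpt, against 139.8 and 127 CPM in untreated NMs (-1.03 ± 0.09). *tyms* and *tk1*, which supply thymidine nucleotides, were at 39.6 and 38.4 CPM, against 85.2 and 78.7 CPM (-1.07 ± 0.07), and at 23.4 and 24.5 CPM, against 52.4 and 48.7 CPM (-1.07 ± 0.08). In none of these 3 called genes did the groups overlap, and 37.9% of all tested genes lay below in this way. Library totals ended all 3 calls. That of *cdk1* was also lost without NM untreated replicate 1, with DESeq2's size factors, with DESeq2's Wald test and with the 4 libraries alone.

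Of 118 tested copies of motile cilium genes 45 rose (38.1%) and the other 73 were not called (median 1.09), with a sum of 578 and 589 CPM at 24 hpt, against 409 and 395 CPM in untreated NMs. Without NM untreated replicate 2 the count was 27, with the 4 libraries alone it was 26, and under library totals it was 68. *foxj1-b*, the master regulator of motile cilia, was at 4.12 and 3.75 CPM at 24 hpt, against 0.701 and 0.548 CPM in untreated NMs (2.64 ± 0.25). *dnah7* (TRINITY_DN114041_c0_g1), a dynein heavy chain of the inner arm, was at 5.69 and 5.17 CPM, against 0.421 and 0.548 CPM (3.43 ± 0.27). In AOs *foxj1-b* was at 4.996 and 4.11 CPM at 24 hpt, against 4.38 and 4.89 CPM in untreated AOs, and the list summed to 578 and 575 CPM at 24 hpt, against 591 and 594 CPM in untreated AOs. The response of NMs was called higher than that of AOs for 26 copies of the list, where 5.61% of all tested genes were. That count was 6 (without NM untreated replicate 2) to 16 (without AO 24 hpt replicate 1) when any 1 of the 8 libraries was left out, 6 under DESeq2's Wald test, 8 with the 8 libraries alone and 53 under library totals. Transport within cilia had 9 of 70 copies higher (12.9%, against 16.1% of all tested genes), and 19 under library totals. Among the 9 was *kif17* (TRINITY_DN106381_c1_g1), a ciliary kinesin, at 4.72 and 5.17 CPM, against 0.561 and 0.767 CPM.

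Among stress and immune genes, *hsp70* and most genes of the interferon response rose. *hsp70*, a heat shock chaperone, was at 2023 and 2317 CPM at 24 hpt, against 725 and 843 CPM in untreated NMs for copy TRINITY_DN119712_c4_g1, and at 1037 and 1102 CPM, against 325 and 352 CPM for copy TRINITY_DN119712_c3_g1 (log2 fold changes 1.47 ± 0.15 and 1.66 ± 0.07). *bag3*, its cochaperone, was at 4.72 and 6.49 CPM, against 0.841 and 0.658 CPM (2.91 ± 0.28). The list of chaperones and the unfolded protein response as a whole had 11 of 73 higher (15.1%), 2 lower (2.74%), against 16.1% and 5.01% of all tested genes, and a median of 0.00, with 1 lower under library totals and without NM 24 hpt replicate 1 and 0 without NM 24 hpt replicate 2 or NM untreated replicate 2. Of 17 interferon response copies 10 rose (58.8%), the other 7 were not called and the median was 1.29. *rsad2*, viperin, was at 32.8 and 24.95 CPM at 24 hpt, against 2.66 and 2.63 CPM in untreated NMs (3.44 ± 0.19). *irf7*, the regulator of interferon genes, was at 16.6 and 14.3 CPM, against 4.21 and 3.73 CPM (1.96 ± 0.14), and *mx1*, an antiviral GTPase, was at 11.02 and 11.3 CPM, against 2.38 and 2.41 CPM (2.21 ± 0.26). In AOs *rsad2* was at 25.3 and 22.9 CPM at 24 hpt, against 2.28 and 1.796 CPM in untreated AOs, and its response differed from that in NMs by -0.11, without a call.

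Cytokines and inflammatory signaling had 4 of 52 higher (7.69%) and 7 lower (13.5%), against 16.1% and 5.01% of all tested genes, and 7 and 3 under library totals. *ccl19*, a chemokine of lymphocytes, was at 42.1 and 47.9 CPM at 24 hpt, against 9.25 and 11.2 CPM in untreated NMs (2.13 ± 0.14). *c3*, the complement component that liver secretes, fell in the 2 copies followed here, and other copies of that name are not reported. The larger of the 2 was at 0.242 and 0.507 CPM, against 14.2 and 14.5 CPM (-5.16 ± 0.31). The liver list moved with it, and its part was not tested. Of the immediate early genes *fos* and *fosb*, subunits of AP-1, rose to 14.5 and 13.6 CPM, against 5.19 and 4.71 CPM (1.51 ± 0.15), and to 25.2 and 30.4 CPM, against 7.85 and 10.6 CPM (1.58 ± 0.17). *ctgf*, a matrix protein induced by YAP and TGF-beta, fell to 24.9 and 32.1 CPM, against 78.8 and 100.2 CPM (-1.65 ± 0.16). The whole list of 40 had 4 higher (10.0%) and 5 lower (12.5%), against 16.1% and 5.01% of all tested genes. It had 1 lower under library totals and 3 without NM 24 hpt replicate 2 or without NM untreated replicate 2. Targets of the glucocorticoid receptor fell in 5 of 18 copies (27.8%) and rose in 1 (5.56%). That rise was lost without any 1 of the 4 libraries, and library totals or the 4 libraries alone left 3 falls. *fkbp5*, a cochaperone of that receptor and its standard target, was at 50.98 and 54.1 CPM, against 140.2 and 138 CPM (-1.40 ± 0.09), *sgk1*, a kinase of ion transport, was at 5.69 and 7.61 CPM, against 18.2 and 19.9 CPM (-1.51 ± 0.16), and *hsd11b2*, which inactivates cortisol, was at 2.66 and 2.43 CPM, against 7.01 and 8.66 CPM (-1.63 ± 0.15).

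Genes of general cell function had few calls. Of 77 cytosolic ribosomal protein copies 1 fell (*rpl37a*, -1.13 ± 0.16) and 1 rose (*rpl11*, 1.93 ± 0.13), although the median was -0.83 (-0.44 under library totals) and the sum 133416 and 116464 CPM at 24 hpt, against 236100 and 209064 CPM in untreated NMs. Under library totals 0 fell and 2 rose, with the replicate number as a block 2 fell, without NM untreated replicate 1 the number was 3, without NM 24 hpt replicate 2 it was 2, and without NM 24 hpt replicate 1 or NM untreated replicate 2 it was 10. *npm1*, a nucleolar protein of ribosome assembly, was at 808 and 652 CPM, against 960.4 and 789 CPM (-0.26 ± 0.16), and *atp5f1b*, a subunit of ATP synthase, was at 817 and 644 CPM, against 1012 and 798 CPM (-0.31 ± 0.21), neither of them called.

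The response of NMs at 24 hpt was set against that of AOs at the same time, which shares no library with it. AOs had 2761 genes higher (12.6%) and 762 lower (3.47%) against their own untreated libraries. Of the genes that rose in NMs, 2186 also rose in AOs, which is 61.6% of the NM genes and 79.2% of the AO genes, and 16 genes that rose in NMs fell in AOs. Of the genes that fell in NMs, 312 also fell in AOs (28.4% of the NM genes and 40.9% of the AO genes), and 15 rose there. The responses themselves differed for 1689 genes (7.68% of those tested), 1234 with a higher (5.61%) and 455 with a lower (2.07%) log2 fold change in NMs. Library totals gave 2759 and 253, and without NM untreated replicate 1 or replicate 2 the first count was 821 or 807. By list, the higher response of NMs was called in 19 of 24 lens copies, 40 of 48 neuronal copies, 38 of 89 synapse copies and 26 of 118 motile cilium copies. The lower response was called in 36 of 104 muscle copies, 16 of 37 liver copies, 16 of 77 ribosomal copies, 12 of 131 collagen copies and 5 of 26 keratin copies. Library totals left 2 ribosomal and 6 collagen copies, the 8 libraries alone 10 ribosomal copies, and leaving out 1 library gave 9 (without NM 24 hpt replicate 2) to 17 ribosomal and 7 (without AO 24 hpt replicate 1) to 12 collagen copies. Ribosomal copies numbered 10 without AO 24 hpt replicate 1 or AO untreated replicate 1. The muscle list summed to 925 and 948 CPM in NMs at 24 hpt, against 497 and 507 CPM in untreated NMs, and to 21505 and 21198 CPM in AOs at 24 hpt, against 837 and 813 CPM in untreated AOs.

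**Figure D5:**
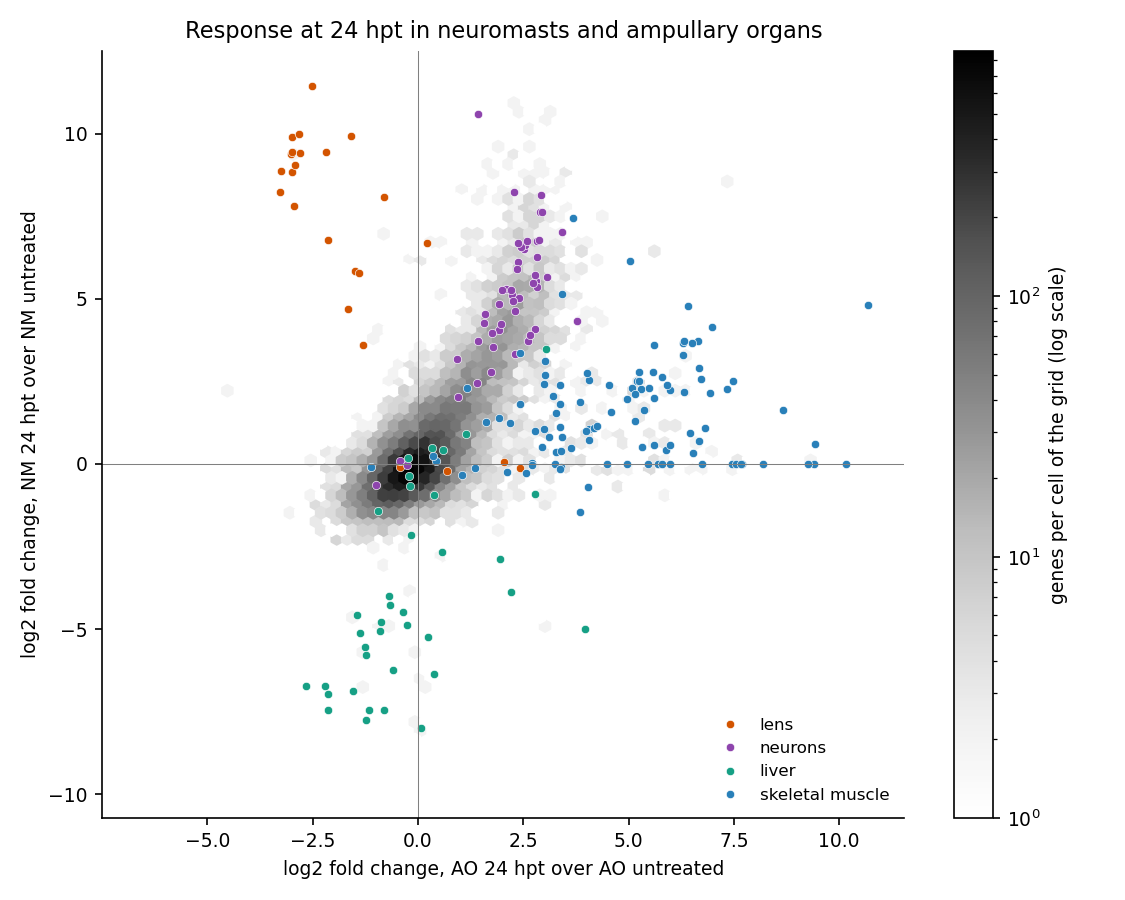
Log2 fold change at 24 hpt over untreated in NMs (vertical axis) and in AOs (horizontal axis) for 21978 tested genes, with no library in common; grey shading counts genes on a log scale and coloured points are copies of the lens, neuron, liver and skeletal muscle lists. Lens copies lay mostly above 0 in NMs and mostly below 0 in AOs, neuronal copies mostly above 0 in both organs, liver copies mostly below 0 in NMs, and muscle copies mostly above 0 in AOs.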

How the data were processed

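The data were 14 RNA-seq libraries of sturgeon tissue in 7 groups of 2. The authors trimmed the reads with Trimmomatic 0.38 after base calling with CASAVA 1.8.2, assembled contigs with Trinity, kept those matching known proteins, and deposited expected counts per assembled gene from RSEM, whose version is not given in the sources used here. Here the expected counts were rounded, filtered with filterByExpr and scaled by TMM, and all 14 libraries were fitted in 1 quasi-likelihood model with 1 mean per group (edgeR 4.0.16, R 4.3.3; procedure tested on simulated counts). Calls needed an FDR under 0.01 and an absolute log2 fold change above 1. CPM used TMM-scaled library sizes, and the deposited counts before scaling summed to 7121038 to 10067958 per library. Replicates correlated at 0.973 and 0.976 in log CPM (Pearson, across genes). A bound set a group without counts to 3 counts over the group. The response of NMs minus that of AOs was a contrast of the same fit.

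The members and lists were chosen with earlier results of these data known. Named were 12 genes per direction with the largest changes at 5 CPM or more, genes the study names by identifier, and up to 5 called copies per list and direction at 2 CPM or more, or the most abundant copy of a list without calls. Chosen after their values were seen were *sox2*, *gfi1*, *otof*, *slc17a8*, *cacna1d*, *cabp1*, *kcnab3*, *espnl*, *grxcr2*, *fscn2*, *otog*, *zpld1*, the *slc1a3* copy, *cdh1*, *cdk1* and the copy TRINITY_DN119712_c4_g1 of *hsp70*. Same-numbered libraries deviated together in 21 of 21 pairs of groups, but weakly (correlations 0.125 to 0.232). The labels name no batch, so a pairing of libraries by number was not established, and a replicate block was an alternative. The others were size factors, library totals, filters, tests with edgeR or DESeq2 1.42.0, thresholds, subsets of groups and leaving out each library. The 801 genes without a protein name were tested and not named, some genes that the rule names are not reported here, and libraries at 12 hpt and of EP entered as levels and in the fit.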

Additional observations from a re-analysis of the deposited data

Results flagged for a closer look

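Of the 160 genes named in the text, 69 changed differently in NMs and in AOs at 24 hpt by a test of the difference itself. Of all tested genes 7.68% did. Many of the named genes were picked for large changes or after their values were seen, so the 69 reflect that choice. The values are log2 fold changes of NMs minus those of AOs, positive where the response of NMs was higher, and called by the thresholds of the report (edgeR). For 42 of the genes the call held without any 1 of the 8 libraries. Of these 42, *mmp2* and the *adamts17* copy at -1.18 lost it under library totals and *kcnma1* under DESeq2's Wald test. Over the 69 genes the call was lost for 13 under DESeq2's Wald test, 13 with the 8 libraries alone, 6 under library totals, and 1 each with DESeq2's size factors, with no filter and with the replicate number as a block. The block ended the call of *wnt5b*. No cause was tested, and fitted values of copies at 0 in untreated NMs depend on the prior count of the model.

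Hair cell and cupula genes with a call that held were *otof* (2 copies, 1.77 and 1.89), *slc17a8* (1.77), *cacna1d* (1.48), *kcnab3* (1.60), *otog* (2.29), *otoa* (2.61), *elmod1* (2.74) and *kcnma1* (-1.68). *otog* was at 2.17 and 2.71 CPM in AOs at 24 hpt, against 12.3 and 13.97 CPM in untreated AOs, whereas the values of NMs overlapped. Neuronal and brain genes were *arx* (8.39), *cnih2* (7.66), *kcnc1* (8.34), *pdzd4* (2 copies, 8.23 and 8.49), *ppfia2* (7.55), *slc12a5* (8.06), *elavl4* (5.94), *gad2* (4.73), *sv2a* (5.22), *fgf14* (2.74), *tnr* (3.79), *mmp24* (2.57), *eno2* (2.49), *aldoc* (1.92) and *omp* (3.05). From the lists of lineage factors and supporting cells came *barhl2* (3.86), *insm1b* (1.22), *myt1* (1.83) and *ptprz1* (1.34). Neurons or glia also express them, and the part of such RNA was not tested. The lens genes *cryaa* and *crybb1* had the values 13.95 and 12.89, the cilium genes *foxj1-b* and *dnah7* 2.67 and 2.47, *fos* 1.62 and *alas2* 1.49. The response of NMs was lower for *col1a1* (-1.94), *col1a2* (-1.66), *krt13* (-1.74), *krt42* (-1.62), *mmp2* (-1.10), *adamts17* (-1.18) and *hsd11b2* (-1.63).

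For the other 27 genes the call was lost without at least 1 library. *snap91* (9.17) and *adamts3* (1.63) lost it without NM untreated replicate 2, *adgrv1* (1.93) without either untreated NM library, and *ccl19* (1.18) without NM untreated replicate 1 or AO untreated replicate 2. *fga* (-6.29) and *c3* (-5.91) lost it without AO 24 hpt replicate 1, *mid1ip1b* (-5.44) without either AO library at 24 hpt, and *agxt* (-6.51) without NM 24 hpt replicate 2 or AO 24 hpt replicate 2. More libraries each ended the calls of *pou4f3* (1.23), *gfi1* (1.23), *barhl1* (1.93), *espnl* (1.30), *zpld1* (1.05), the other *cacna1d* copy (1.61), *atp2b2* (4.24), *fgf13* (1.89), *spred1* (2.86), *spred2* (6.80), *neurl1* (1.57), *dtx1* (1.42), *wnt5b* (-1.0), *wnt8b* (5.19), *col11a1* (-1.26), *sgk1* (-1.08), *fosb* (1.15), *kif17* (2.44) and the other *adamts17* copy (-1.20).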

How the results depend on the processing

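Most alternatives kept the counts of 3549 higher and 1100 lower genes within 1.5 times. DESeq2's size factors gave 3638 and 993, no filter 3569 and 1106, the exact test 3745 and 1171, DESeq2's Wald test 3338 and 906, the 4 libraries alone 3197 and 788, and leaving out 1 library 3123 to 3253 and 1016 to 1084. Library totals gave 4626 and 354. With the replicate number as a block the counts were 3642 and 1149, and no call of a gene named in the text changed. For the difference from AOs, 1234 higher and 455 lower, the block gave 1471 and 586 and ended the call of *wnt5b* alone among the genes named in the text, an FDR under 0.05 gave 2003 and 706, library totals 2759 and 253, and leaving out 1 library 807 to 971 and 336 to 393. The exact test was not run for that difference, since it compares 2 groups only. The sign turned for genes that were not called. Under library totals *otof* was at 0.12 and 0.16, *otog* at 0.26, *npm1* at 0.12 and *atp5f1b* at 0.073. Leaving out 1 library gave -0.30 (without NM untreated replicate 2) to 0.65 for *ep300*, -0.024 (without NM 24 hpt replicate 2) to 0.69 for *tbx18*, -0.058 (without NM 24 hpt replicate 1) to 0.24 for *cabp1*, -0.29 to 0.031 (without NM 24 hpt replicate 2) for *otog*, and -0.028 (without NM untreated replicate 1) to 0.17 for *slc17a8*. The sign of *ep300* also turned without NM 24 hpt replicate 1 (-0.22), and that of *cabp1* without NM untreated replicate 2 (-0.0028). The cause was not tested. With 1 pool of larvae per group, no test here speaks of larvae, and genes of few counts, such as *fgf8*, were limited by depth.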

Other observations

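Genes of glycolysis and of ion transport moved both ways. Of 63 copies for glycolysis and hypoxia 21 rose at 24 hpt (33.3%) and 5 fell (7.94%), against 16.1% and 5.01% of all tested genes. There were 3 falls under library totals and 3 without NM 24 hpt replicate 2. *eno2*, the enolase of neurons, was at 75.4 and 89.5 CPM at 24 hpt, against 2.24 and 2.08 CPM in untreated NMs (5.25 ± 0.23), and *aldoc*, the aldolase of brain, was at 118 and 118 CPM, against 7.43 and 9.86 CPM (3.75 ± 0.13). *ddit4* (TRINITY_DN103127_c0_g4), a stress-induced inhibitor of growth signaling, fell to 48.3 and 45.5 CPM, against 181 and 169 CPM (-1.90 ± 0.09). Of 40 copies for ion transport 11 rose (27.5%) and 5 fell (12.5%), and none fell under library totals. *atp6v1a*, of the proton pump that ionocytes use, was at 40.6 and 41.6 CPM, against 93.8 and 104 CPM (-1.27 ± 0.12). The neuron and liver lists moved in the same samples, and their part was not tested.

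Of 15 copies that mark olfactory epithelium 10 rose (66.7%), with a summed level of 207 and 204 CPM at 24 hpt, against 84.5 and 78.7 CPM in untreated NMs. *omp*, the marker of mature olfactory neurons, was at 15.98 and 14.9 CPM, against 0.841 and 2.08 CPM (3.32 ± 0.36), and in AOs at 23.5 and 27.4 CPM at 24 hpt, against 20.3 and 21.96 CPM in untreated AOs. Of 16 red blood cell copies 7 rose (43.8%) and 1 fell (6.25%), a fall that library totals ended. *alas2* (TRINITY_DN116055_c2_g2), of heme synthesis in erythrocytes, was at 12.6 and 10.7 CPM, against 2.804 and 3.18 CPM (1.94 ± 0.14), and in AOs at 13.9 and 15.6 CPM at 24 hpt, against 10.7 and 10.9 CPM in untreated AOs. For both *omp* and *alas2* untreated NMs were the lowest of these 4 groups. Of 49 copies for p53 and apoptosis 5 rose (10.2%, against 16.1% of all tested genes), 4 of them encoding sestrins, which act in stress signaling, and 4 fell (8.16%, against 5.01%), with 0 falls under library totals and 3 rises without NM untreated replicate 2.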
